A study of Mus musculus with 12 samples.

Results

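The Notch receptors, ligands and targets were followed as 10 genes picked by symbol out of the 24470 genes counted in mouse fetal testis, and all 10 were among the 15572 genes with enough reads to be tested. They were the receptors Notch1, Notch2 and Notch3, the ligands Jag1, Jag2 and Dll4, and the target genes Hes1, Hey1, Hey2 and Heyl. RNA was sequenced from whole testes at E14.5, pooled 3 to a sample, with 6 control pools (Nr2f2 f/f) and 6 cKO pools (Wt1 CreER x Nr2f2 f/f). Both groups carried the floxed Nr2f2 alleles, and only the cKO embryos carried the tamoxifen-inducible Cre, which is driven from the Wt1 gene and acts in progenitors of the gonad that express Wt1. Per the study's methods, pregnant dams carrying both kinds of embryo received tamoxifen in the days before collection. Nr2f2, also known as COUP-TFII, encodes an orphan nuclear receptor of interstitial cells. The comparison asked how gene expression in the testis differs after its deletion.

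Notch receptors sit on the cell surface and are activated by Jagged or Delta ligands on a neighbouring cell. The receptor is then cut, and its intracellular part enters the nucleus, joins the DNA-binding protein RBPJ and switches on Hes and Hey genes, which encode transcriptional repressors. In the fetal testis Notch signalling is known to keep interstitial progenitors from becoming Leydig cells, and in blood vessels it is known for arterial identity, which Nr2f2 opposes in veins.

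Of the 10 genes, Hey2 was lower in cKO testes and the other 9 did not pass the test. The Hey2 call was lost in 12 of the 22 alternatives run, among them 9 of the 12 fits that leave out a single pool. Hey2 encodes a repressor best known from arteries and the heart, and was the least expressed of the 10 per length. Its level was 6.98 ± 1.67 CPM (counts per 1000000 in the library, SD, n = 6) in control pools and 4.41 ± 1.12 CPM (n = 6) in cKO pools. The call was 1 of 10 genes, and over all genes tested 8.13% were called in either direction and 4.85% were called lower, so the members' count stands near the background. The median log2 fold change of the 10 was -0.02, beside 0.003 over all genes tested, and 6 of the 10 were below 0. None of the 10 had groups free of overlap, beside 5.52% of all genes tested.

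The deletion and the make-up of the pools were checked first. Nr2f2 was between 163 and 186 CPM in control pools and between 50.2 and 119 CPM in cKO pools, a log2 fold change of -1.21 (SE 0.16, edgeR quasi-likelihood adjusted p = 0.000548), so reduced Nr2f2 RNA was still present in every cKO pool. Sertoli cell markers were present in all pools, with summed levels of 595 to 1092 CPM in control and 622 to 1083 CPM in cKO pools. Macrophage markers did not overlap in their sums, at 34.1 to 46.8 CPM and 52.5 to 66.0 CPM, with 3 of 6 called higher. Of 5 erythroid markers 1, Hbb-bs, was called lower, and their sums were 917 to 1332 CPM and 623 to 962 CPM. The part of these cells in the Notch genes was not tested. Control replicate 1 and cKO replicates 3, 5 and 6 stood apart, with Xist, the RNA of the inactive X chromosome, at 304 to 891 CPM against 5.15 to 7.68 CPM in the other 8 pools. The same 4 pools held 14.6 to 47.2 CPM of the ovarian marker Foxl2, against 0.230 to 1.30 CPM in the other 8. Since 3 of these pools were cKO and 1 was control, the fold changes of the members and of the called pathway genes are also given without them. In whole testes fewer cells of a type and less RNA per cell cannot be told apart. The labels do not say that pools came from separate litters, so p-values measure the spread between these pools.

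The DNA upstream of the genes that were lower in cKO pools is shown for the 3 of 4 with a window, Dtx4 being the fourth, because RBPJ reads such sequence. The 3 are Hey2, Lfng (a sugar transferase acting on Notch receptors) and Dlk1 (a Delta-like protein without the usual receptor-binding motif), and the sequences are RefSeq windows of the GRCm38.p6 build, each covering the 250 bases before the annotated start site and written 5′ to 3′ on the gene's strand. They lie at chr10:30842784-30843033 on the minus strand for Hey2, chr5:140607091-140607340 on the plus strand for Lfng and chr12:109452573-109452822 on the plus strand for Dlk1. Capitals mark the core of the RBPJ motif, TGGGAA, searched on both strands, so that TTCCCA is the same core on the opposite strand.

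Hey2: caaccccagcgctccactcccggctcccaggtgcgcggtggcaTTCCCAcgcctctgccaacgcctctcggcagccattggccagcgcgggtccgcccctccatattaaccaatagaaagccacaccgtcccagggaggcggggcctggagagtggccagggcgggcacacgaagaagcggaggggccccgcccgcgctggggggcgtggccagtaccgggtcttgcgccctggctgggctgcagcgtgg

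Lfng: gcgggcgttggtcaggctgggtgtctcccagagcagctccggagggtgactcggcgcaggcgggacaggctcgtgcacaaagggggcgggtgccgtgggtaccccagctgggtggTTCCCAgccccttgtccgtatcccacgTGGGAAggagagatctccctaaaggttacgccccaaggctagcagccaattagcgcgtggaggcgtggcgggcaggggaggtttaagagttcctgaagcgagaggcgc

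Dlk1: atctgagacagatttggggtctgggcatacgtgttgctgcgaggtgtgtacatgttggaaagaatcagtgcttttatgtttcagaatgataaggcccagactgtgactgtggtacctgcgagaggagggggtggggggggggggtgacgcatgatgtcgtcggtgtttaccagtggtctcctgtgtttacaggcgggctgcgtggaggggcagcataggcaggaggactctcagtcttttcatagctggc

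The Hey2 window held 1 RBPJ core, on the strand opposite to the gene, from -207 to -202 counted from the start site. The Lfng window held 2, from -135 to -130 on the opposite strand and from -108 to -103 on its own strand. The second of these overlapped a CACGTG E-box, the motif read by some basic helix-loop-helix proteins, from -112 to -107. The Dlk1 window held none. The windows of Tle4 and Fbxw7, the pathway genes called higher in cKO pools, were searched the same way and held no RBPJ core. Windows were found for 7 of the 10 members, not for the targets Hes1, Hey1 and Heyl, and Hey2, the 1 target searched, was the 1 of 7 that held the core, while 21.5% of the 27025 promoter windows of the same length did. The nuclear receptor half-site AGGTCA, searched the same way, was in 0 of the 7 and in 13.8% of all windows. The N-box CACNAG, a sequence that Hes proteins can bind, was in the windows of Notch1, Notch2, Notch3 and Dll4, 4 of the 7, against 36.7% of all windows. CACGTG was in 0 of the 7 and in 6.05% of all windows. These matches describe letters in a window, and no binding was measured in these samples.

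Compared per kilobase of exon, the members ran from Notch2 to Hey2 in control pools. The order of mean levels was Notch2 (19.4 ± 3.61 CPM per kb), Notch3 (16.8 ± 4.95), Heyl (15.8 ± 4.76), Hes1 (14.7 ± 2.39), Jag1 (11.8 ± 2.06), Hey1 (6.42 ± 0.426), Notch1 (3.17 ± 1.07), Jag2 (2.42 ± 1.96), Dll4 (2.21 ± 0.544) and Hey2 (1.52 ± 0.364), with SD over 6 pools. Neighbours in this order overlapped between pools at 7 of the 9 steps, the exceptions being the steps from Jag1 to Hey1 and from Hey1 to Notch1. Within single pools, Notch2 was above Notch3 and Hes1 above Jag1 in 6 of 6 control pools, but Jag2 was above Dll4 in 1 of 6. That pool was control replicate 1, and without it Jag2 (1.63 ± 0.392, n = 5) came after Dll4 (2.04 ± 0.414), and Heyl and Notch3 were level at 15.3. In cKO pools the order differed only in that Heyl (15.6 ± 4.26 CPM per kb) came just before Notch3 (15.5 ± 2.75).

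**Figure D1:**
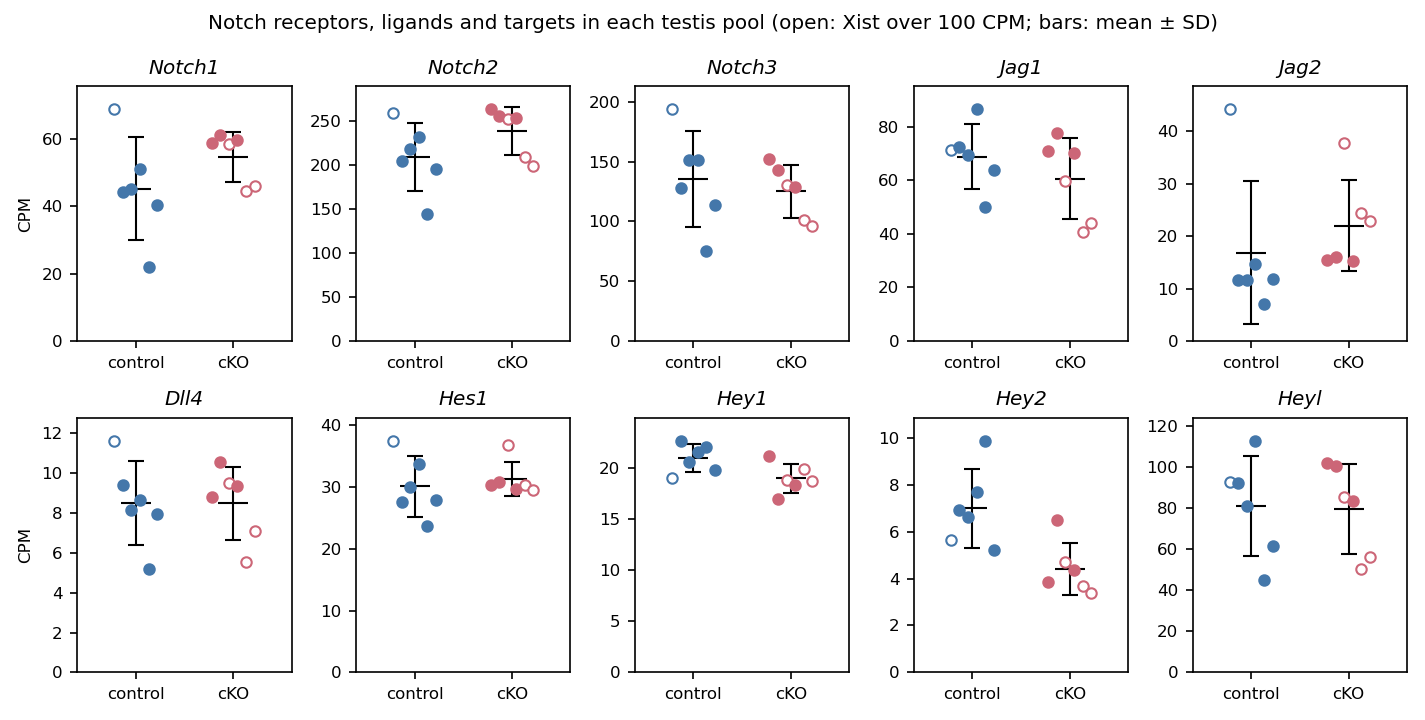
CPM (linear axes from 0, scaled by gene) of the 10 Notch genes in 6 control and 6 cKO pools, with each point a pool, bars at mean ± SD, and open points for the 4 pools with Xist over 100 CPM. Hey2 points in cKO lie between 3.37 and 6.48 CPM against 5.21 to 9.87 CPM in control, and the open Jag2 points lie above all filled ones.

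None of the 3 receptors passed edgeR's test, 0 of 3 had an unadjusted p under 0.05, and DESeq2 and limma-voom called 0 as well. Notch1 ranged from 21.8 to 68.8 CPM in control pools (median 44.6) and from 44.5 to 61.0 CPM in cKO pools (median 58.6). All cKO pools lay inside the control range, with the lowest and the highest control pools, replicates 5 and 1, far from the rest. The log2 fold change was 0.27 (SE 0.19, 95% interval -0.15 to 0.69, adjusted p = 0.397 by edgeR's quasi-likelihood test). Notch2 ranged from 145 to 260 CPM in control pools (median 212) and from 200 to 264 CPM in cKO pools (median 253). Here 1 cKO pool was above every control, and the log2 fold change was 0.19 (SE 0.12, interval -0.07 to 0.45, edgeR adjusted p = 0.334). Notch3, the receptor known from the smooth muscle and pericytes of vessel walls, ranged from 75.6 to 194 CPM in control pools (median 140) and from 96.4 to 152 CPM in cKO pools (median 129). Its cKO pools lay inside the control range, with a log2 fold change of -0.12 (SE 0.18, interval -0.51 to 0.27, edgeR adjusted p = 0.712), which turned to 0.19 (adjusted p = 0.509) without the 4 high-Xist pools. Among the 8 pools low in Xist, Notch1 was 21.8 to 50.9 CPM in 5 control pools and 58.9 to 61.0 CPM in 3 cKO pools, and Notch2 was 145 to 232 CPM against 254 to 264 CPM. Neither gene's groups overlapped there, yet the log2 fold changes of 0.56 and 0.38 did not pass the test (edgeR adjusted p = 0.101 and 0.0890). Across all genes 28.2% were free of overlap in those 8 pools, and of the members 3 of 10 were, which is close to that share.

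The make-up of the receptor counts was compared as well, since a share is not moved by scaling between libraries. Notch3 took 34.4 ± 2.23% of the counts of the 3 receptors in control pools (31.2 to 37.1%) and 29.7 ± 1.51% in cKO pools (28.2 to 32.0%). In 5 of the 6 cKO pools the Notch3 share was below every control pool, and the difference of -4.64 percentage points stayed between -5.26 and -3.09 when any single pool or the 4 high-Xist pools were left out. Among the 8 pools low in Xist the Notch3 shares were 31.2 to 36.4% and 29.1 to 32.0%, which overlap. Notch1 took 11.3 ± 1.36% in control and 13.1 ± 0.483% in cKO pools, and Notch2 took 54.3 ± 3.35% and 57.2 ± 1.39%. These shares were examined after the levels had been seen and are given without a test. Markers of pericytes had summed levels of 337 to 522 CPM in control and 259 to 423 CPM in cKO pools, and 2 of 8, Kcnj8 and Lgi1, were called lower. In the 8 pools low in Xist these sums were 337 to 463 CPM and 332 to 423 CPM, and Kcnj8 alone was called. The highest control share of Notch3, 37.1%, was in replicate 1 and the lowest, 31.2%, in replicate 5. Long and GC-rich genes, described below, deviated by 0.29 and -0.46 (log2) in those pools. The longest transcript of Notch3 was 59.6% GC and that of Notch2 53.6%. The part of pericytes and of base composition in the Notch3 share was not tested.

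**Figure D2:**
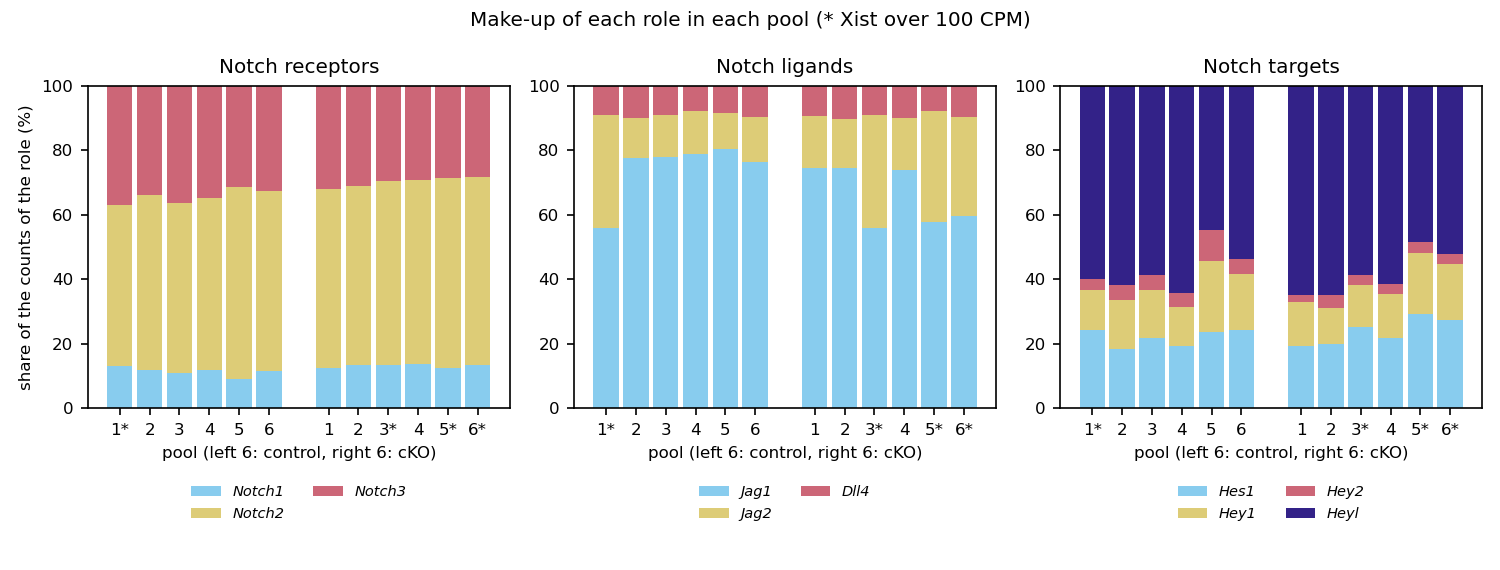
Share of the summed counts (percent) held by each gene within the receptors, ligands and targets, with 1 bar per pool, the 6 control pools on the left and the 6 cKO pools on the right, and asterisks for Xist over 100 CPM. The Notch3 share is 28.2 to 32.0% in cKO and 31.2 to 37.1% in control pools, and the Jag2 segment is tallest in the 4 starred pools.

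Of the 3 ligands, 0 passed the test with edgeR, DESeq2 or limma-voom, and 0 had an unadjusted edgeR p under 0.05. Jag1, a main Notch ligand of vessel walls and of many epithelia, ranged from 49.9 to 86.6 CPM in control pools (median 70.4) and from 40.8 to 77.5 CPM in cKO pools (median 65.0). Only cKO replicates 5 and 6, both high in Xist, lay below every control pool. The log2 fold change of Jag1 was -0.18 (SE 0.16, interval -0.53 to 0.16, edgeR adjusted p = 0.488), and without the 4 high-Xist pools it was 0.09. Dll4, the Delta ligand of arterial and sprouting endothelium, ranged from 5.20 to 11.6 CPM in control pools (median 8.42) and from 5.56 to 10.6 CPM in cKO pools (median 9.07). The groups shared most of their range, with a log2 fold change of -0.01 (SE 0.18, interval -0.39 to 0.38, edgeR adjusted p = 0.990). Without the 4 high-Xist pools the log2 fold change of Dll4 was 0.26 (adjusted p = 0.292 by the same edgeR test). Among 14 endothelial markers only Tek was called (log2 fold change -0.41, SE 0.11, edgeR adjusted p = 0.0352), and their summed level was 469 to 690 CPM in control and 465 to 579 CPM in cKO pools, with no marker at 0 in any pool. In the 8 pools low in Xist the sums were 469 to 539 CPM and 498 to 579 CPM, and the 1 marker called was Robo4, which was higher in cKO pools (log2 fold change 0.54, edgeR adjusted p = 0.0282).

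Jag2, the other Jagged ligand, was spread widely between pools. It ranged from 7.04 to 44.3 CPM in control pools (median 11.7) and from 15.4 to 37.8 CPM in cKO pools (median 19.5). The 4 highest pools, at 22.9 to 44.3 CPM, were the 4 with high Xist, and the control pool among them was the highest of the 12. With all pools the log2 fold change was 0.35 (SE 0.38, interval -0.47 to 1.17, edgeR adjusted p = 0.582). Leaving out control replicate 1 brought it to 0.94 with an edgeR adjusted p of 0.0192, a fit in which 19.9% of all genes tested were called. Leaving out cKO replicate 3 brought it to 0.12 (edgeR adjusted p = 0.876). Adding a covariate that marks the 4 high-Xist pools, below called Xist as a covariate, brought it to 0.09 (edgeR adjusted p = 0.831). Leaving out all 4 high-Xist pools gave 5 control pools at 7.04 to 14.6 CPM and 3 cKO pools at 15.4 to 16.0 CPM, which do not overlap, and the fitted log2 difference of 0.45 missed the threshold (edgeR adjusted p = 0.120). In that fit 7.08% of all genes tested were called and 0 of the 10 members were, with 4 at an unadjusted p under 0.05, beside 28.3% of all genes tested in that fit. The summed level of 5 markers of ovarian supporting cells was 125 to 291 CPM in the 4 high-Xist pools and 54.5 to 84.5 CPM in the other 8, with no marker at 0. Within those 8 the sums were 74.6 to 84.5 CPM in control and 54.5 to 66.0 CPM in cKO pools, and the markers differed in direction. Foxl2 (log2 fold change 1.45, edgeR adjusted p = 0.00958) and Fst (0.62, edgeR adjusted p = 0.0216) were called higher in cKO pools, and Wnt4 lower (-0.84, edgeR adjusted p = 0.00686, and -0.77 with all pools). The part of these cells in the Jag2 levels was not tested.

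Among the targets, Hey2 gave the only call. Hey2 ranged from 5.21 to 9.87 CPM in control pools (median 6.76) and from 3.37 to 6.48 CPM in cKO pools (median 4.11), on 36 to 263 and 27 to 201 counts. In 5 of the 6 cKO pools it was below every control pool, the exception being cKO replicate 2. The log2 fold change was -0.67 (SE 0.18, 95% interval -1.06 to -0.28), with an adjusted p of 0.0368 by edgeR's quasi-likelihood test. The fold change stayed between -0.80 and -0.55 in every alternative, but the call was kept in 3 of the 12 fits that leave out a single pool, where the edgeR adjusted p ran from 0.0101 to 0.0826. Those were the fits without control replicate 1, control replicate 6 or cKO replicate 2, and leaving out any of the other 9 pools ended the call. Without the 4 high-Xist pools the log2 fold change was -0.61 (edgeR adjusted p = 0.0992). All 7 smooth muscle markers were called lower, with log2 fold changes from -2.29 to -0.31, and their summed level was 569 to 699 CPM in control and 336 to 518 CPM in cKO pools, with no marker at 0, and 5 of the 7 were called without the 4 high-Xist pools. The part of vessel wall and other smooth muscle in the Hey2 level was not tested.

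Hey1, a close relative of Hey2, did not pass the test. It ranged from 19.0 to 22.7 CPM in control pools (median 21.1) and from 17.0 to 21.2 CPM in cKO pools (median 18.8). In 4 of 6 cKO pools it was below every control pool, and the log2 fold change was -0.14 (SE 0.07, interval -0.30 to 0.02, edgeR adjusted p = 0.240). Without the 4 high-Xist pools the log2 fold change of Hey1 was -0.18 (edgeR adjusted p = 0.245). Hes1, a target switched on in many cell types, ranged from 23.7 to 37.4 CPM in control pools (median 29.0) and from 29.5 to 36.7 CPM in cKO pools (median 30.3). All its cKO pools lay inside the control range, and the log2 fold change was 0.05 (SE 0.10, interval -0.17 to 0.27, edgeR adjusted p = 0.788). Without the 4 high-Xist pools that of Hes1 was 0.08 (edgeR adjusted p = 0.620). Heyl, the target known from vascular smooth muscle, ranged from 44.8 to 113 CPM in control pools (median 86.6) and from 50.3 to 102 CPM in cKO pools (median 84.4). Its groups covered nearly the same span, with a log2 fold change of -0.03 (SE 0.22, interval -0.49 to 0.44, edgeR adjusted p = 0.958), which turned to 0.27 without the 4 high-Xist pools.

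**Figure D3:**
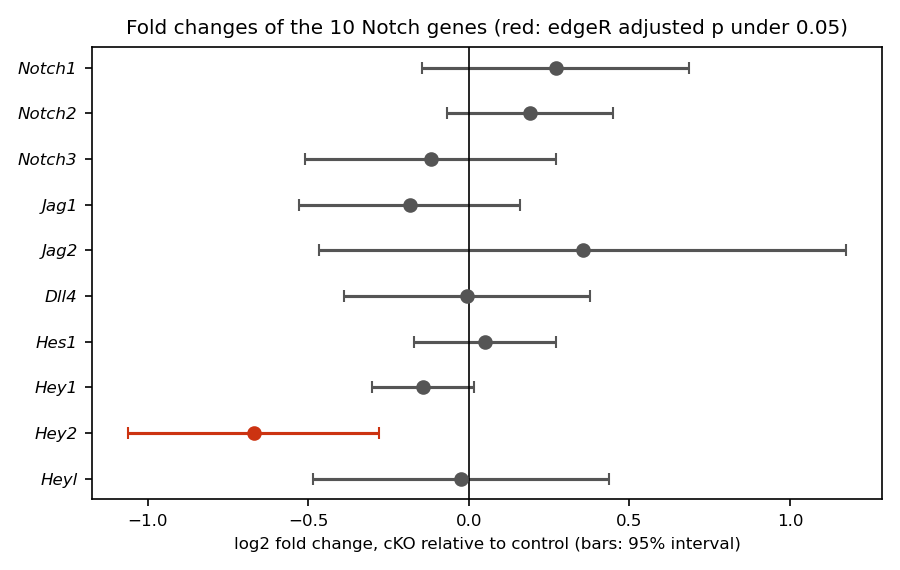
Log2 fold change (cKO relative to control) of each of the 10 Notch genes over 6 and 6 pools, with bars for the 95% interval from edgeR's quasi-likelihood fit and red for an adjusted p under 0.05. The Hey2 interval, -1.06 to -0.28, is the one that leaves out 0, and the Jag2 interval, -0.47 to 1.17, is the widest.

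The receptors and several other members moved together between pools of the same genotype. After removing each group's mean from log2 CPM, Pearson's r over the 12 pools was 0.97 for Notch1 with Notch2, 0.96 for Notch1 with Notch3 and 0.99 for Notch2 with Notch3. Heyl followed Jag1 (r = 0.94), while Hey2 stood apart from all the others, with r from -0.43 for Jag2 to 0.28 for Jag1 over the 12 pools and from -0.45 to -0.04 over the 8 low in Xist, and Hey1 had r from -0.48 to -0.03 with every other member. Jag1 and Jag2 had an r of 0.01 over the 12 pools and 0.67 over those 8. All values over the 8 pools used the deviations from group means of the 12 pools. These means were not taken again for the 8, so a difference between the groups can remain in those values. Searching 14261 genes by the same measure, the 2 genes most like Notch1 were Ksr1 and Sipa1 (both r = 0.99), and those most like Heyl were Dock8 (0.99) and Sparc (0.98). For Notch2 they were Man1c1 and Cic (both 0.99), and for Notch3 they were Notch2 itself (0.99) and Kank2 (0.99). Jag1 was nearest to Sema5a and Tbc1d2b (both 0.98), Dll4 to Gnaq (0.97) and Tbl1xr1 (0.96), and Hes1 to Kalrn (0.96) and Foxj2 (0.95). Jag2 was nearest to Klhdc8b and Gas6 (both 0.98), values that were 0.87 and 0.81 over the 8 pools low in Xist. Hey2 was nearest to Fam180a (0.94) and Ms4a10 (0.92), and Hey1 to Krt17 (0.91) and Leprotl1 (0.89). These correlations are descriptions over pools that also share depth, RNA quality and cell make-up, and the nearest genes are picks from many.

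The shared movement had a counterpart outside the Notch genes. Control replicate 5 held the lowest control level of 8 members (all but Hey1 and Hey2) and the highest control level of Hey2. The median deviation of the 10 members from their group means was -0.58 (log2) in control replicate 5 and 0.33 in control replicate 1. Long and GC-rich genes, 446 genes with at least 6720 exon bases and at least 54.5% GC, deviated by a median of -0.46 and 0.29 in the same pools. All genes passing the length limit deviated by -0.08 and 0.08 there, and all genes passing the GC limit by -0.27 and 0.13. In cKO replicates 5 and 6 the members deviated by -0.23 and -0.25, and the long and GC-rich genes by -0.07 and -0.11. Of the members, 4 passed the length limit and 5 passed the GC limit. The part of transcript length and base composition in the spread of the members was not tested. Without control replicate 5 the log2 fold changes were 0.14 for Notch1 and 0.11 for Notch2 (edgeR adjusted p = 0.586 and 0.507), and that of Hey2 was -0.55 (edgeR adjusted p = 0.0701). Without control replicate 1 they were 0.43 for Notch1, 0.26 for Notch2 and -0.74 for Hey2 (edgeR adjusted p = 0.0857, 0.114 and 0.0159). In that fit 19.9% of all genes tested were called.

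**Figure D4:**
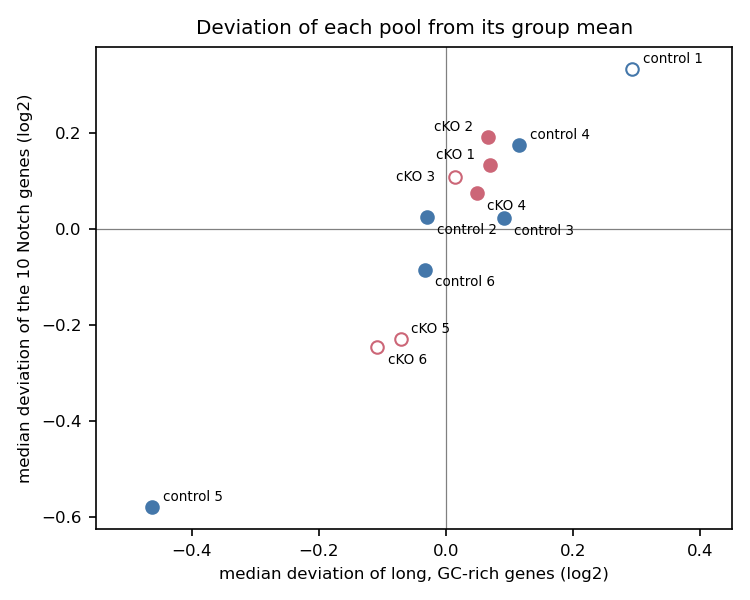
Median deviation (log2 CPM minus the group mean) of the 10 Notch genes against that of 446 long, GC-rich genes, with 1 point per pool, blue for control, red for cKO and open points for Xist over 100 CPM. Control replicate 5 lies lowest on both axes (-0.46 and -0.58) and control replicate 1 highest (0.29 and 0.33).

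The rest of the pathway was read from a list of 58 genes, of which 54 were tested and Dlk2, Rbpjl, Hes2 and Hes3 were too low. In this list 3 genes fell, Dlk1, Dtx4 and Lfng, and 2 rose, Tle4 and Fbxw7, 5 of 54 beside 8.13% called over all genes, with 4.85% called lower and 3.28% called higher. The median log2 fold change was 0.05, 22 of 54 were below 0 beside 49.4% of all genes tested, and 3 of 54 had groups free of overlap, close to the 5.52% over all genes.

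Dlk1 was the most abundant called gene, at 371 to 483 CPM in control pools (median 419) and 202 to 310 CPM in cKO pools (median 302). No cKO pool reached the control range, and the log2 fold change was -0.59 (SE 0.10, edgeR adjusted p = 0.00323). Without the 4 high-Xist pools it was -0.43 (edgeR adjusted p = 0.0146). Of the other genes in the group of Dlk1, which are Notch4, Dll1, Dll3 and Dner, 0 of 4 passed. In the fit of the 8 pools low in Xist, Notch4, a receptor of endothelium, was called higher (log2 fold change 0.78, edgeR adjusted p = 0.0374, against 0.46 and 0.163 with all pools). Dlk1 is also known as a marker of fetal Leydig and mesenchymal cells, and 3 of 4 fetal Leydig markers were called lower, with summed levels of 1559 to 2905 CPM in control and 841 to 1744 CPM in cKO pools. Of 6 interstitial progenitor markers 2 were called lower, Tcf21 and Wnt5a, and 1 higher, Adam23, with summed levels of 988 to 1293 CPM in control and 634 to 1102 CPM in cKO pools. The part of these cells in the Dlk1 level was not tested.

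Dtx4, a ubiquitin ligase of the Deltex family that acts on Notch, was at 119 to 169 CPM in control pools (median 146) and 58.2 to 115 CPM in cKO pools (median 78.3). The groups did not overlap, and the log2 fold change was -0.83 (SE 0.16, edgeR adjusted p = 0.00499), the furthest from 0 in the list with all pools. Without the 4 high-Xist pools it was -0.60 (edgeR adjusted p = 0.0246), and Notch4 and Tle2 were further from 0, at 0.78 and 0.67. The other Deltex genes Dtx1, Dtx2, Dtx3 and Dtx3l had values of -0.26, 0.15, -0.19 and 0.31 with all pools, and 0 of 4 passed. The calls of Dlk1 and Dtx4 held in all 22 alternatives run.

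Fbxw7, a ubiquitin ligase subunit that marks the active Notch fragment for breakdown, was at 73.2 to 79.8 CPM in control pools (median 74.9) and 84.0 to 104 CPM in cKO pools (median 87.9). The groups did not overlap, with a log2 fold change of 0.28 (SE 0.06, edgeR adjusted p = 0.0164), and without the 4 high-Xist pools it was 0.20 (edgeR adjusted p = 0.0875). Tle4, a Groucho corepressor that Hes proteins recruit, was at 66.4 to 97.3 CPM in control pools (median 79.3) and 88.7 to 116 CPM in cKO pools (median 105). Here 4 of 6 cKO pools were above every control, with a log2 fold change of 0.36 (SE 0.09, edgeR adjusted p = 0.0259), and the call was kept in 6 of the 12 fits that leave out a single pool and lost without the 4 high-Xist pools (0.30, edgeR adjusted p = 0.136). Its relative Tle2 was called in that fit (0.67, edgeR adjusted p = 0.0289, against 0.40 and 0.297 with all pools). Lfng was at 14.6 to 24.5 CPM in control pools (median 22.2) and 14.4 to 16.9 CPM in cKO pools (median 16.0). Its lowest control pool was replicate 1, the high-Xist one, inside the cKO range. The log2 fold change of Lfng was -0.41 (SE 0.11, edgeR adjusted p = 0.0387), and the call was kept in 1 of the 12 fits that leave out a single pool, the one without control replicate 1. Without the 4 high-Xist pools it was -0.42 (edgeR adjusted p = 0.0192). The call was lost with Xist as a covariate (-0.29, edgeR adjusted p = 0.0810), with limma-voom (adjusted p = 0.0719) and with scaling by total counts (edgeR adjusted p = 0.0528).

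Of the 24 genes tested in the remaining roles edgeR and limma-voom called 0. DESeq2, which called 1909 genes over all, called 1 of the 24, the coactivator Maml2 (edgeR log2 fold change -0.33, adjusted p = 0.0819). Without the 4 high-Xist pools edgeR called 1 of them, the protease gene Furin, which was higher in cKO pools (log2 fold change 0.51, adjusted p = 0.0498, against 0.30 and 0.259 with all pools). The receptor-cutting proteases (10 genes tested, among them the presenilins and Adam10) had a median log2 fold change of 0.10, with values from -0.21 to 0.30. The nuclear complex (7 tested) had a median of 0.02, and Rbpj itself, the DNA-binding partner of all Notch receptors, was at 51.3 ± 1.97 CPM in control and 52.1 ± 3.10 CPM in cKO pools (log2 fold change 0.02, interval -0.10 to 0.14). The ligand ubiquitin ligases (4 tested) had a median of -0.11, and the other Hes genes (3 tested) a median of -0.18.

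**Figure D5:**
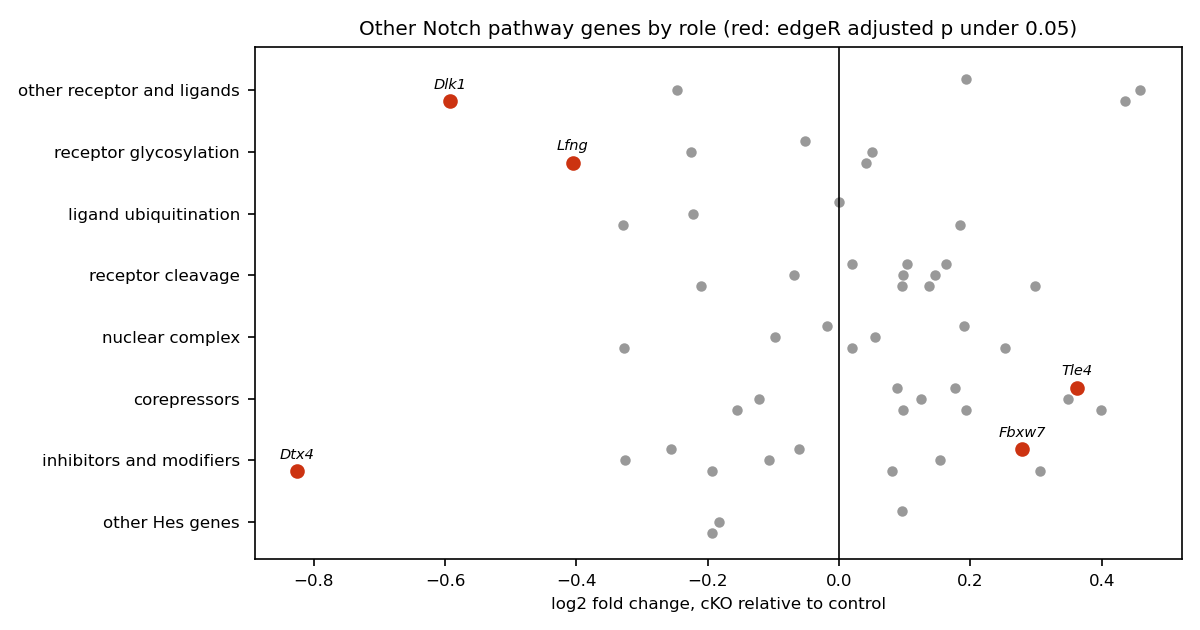
Log2 fold change (cKO relative to control) of 54 further Notch pathway genes by role, with each point a gene and red for an edgeR adjusted p under 0.05. Dtx4 (-0.83), Dlk1 (-0.59) and Lfng (-0.41) lie to the left and Fbxw7 (0.28) and Tle4 (0.36) to the right.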

How the data were processed

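The authors trimmed the reads with Trim Galore 0.6.7, aligned them to mm10 with STAR 2.5 and counted read pairs by strand on RefSeq Curated genes with featureCounts (Subread 1.5.0-p1), and deposited raw counts per gene for 12 libraries without normalization. Totals per library ran from 7044531 to 59404778 counts. The 12 libraries were grouped by the genotype in their labels. The members and gene lists were chosen with earlier results of these data known. The genes named were the 10 members, the 2 genes most like each, pathway genes that passed the test, Nr2f2, Xist and markers beside a result.

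Counts were tested in R 4.3.3 with edgeR 4.0.16 (TMM scaling, filterByExpr set to counts of 10 per library and 15 in total, glmQLFit and glmQLFTest without covariate), and p-values were adjusted by Benjamini-Hochberg over 15572 genes with a threshold of 0.05. CPM were counts per 1000000 after TMM scaling, and log2 values of single pools had a prior of 2 counts added. The SE was the size of the log2 fold change divided by the square root of F. Levels per kilobase used GENCODE exon unions of the same build, matched by symbol. The likeness search was limited to genes averaging 1 CPM or more. Notch1 and Jag2 hold a microRNA gene on the same strand (Mir6996 and Mir6941), and Dll4 overlaps Gm14207 on the opposite strand, which strand-aware counting separates.

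In a test on simulated data, for cKO against control with 200 changed genes among 15572, edgeR recovered 144, 90 of those changed by a log2 of 1 and 54 of those changed by 0.5, with 6 false calls. DESeq2 recovered 159 with 38 false calls, and limma-voom recovered 146 with 8. Alternatives were other scalings and filters, DESeq2 1.42.0 (the authors' tool), limma-voom 3.58.1, a replicate block, leaving out each library, and leaving out those 4 whose Xist exceeded 100 CPM. Others were chosen after seeing the data. They were Xist as a covariate, which marked those 4 libraries and did not use the Xist level, and the shares within a role without single libraries or those 4.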

Additional observations from a re-analysis of the deposited data

Results flagged for a closer look

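In 2 of 32 groups of 6 pools examined, 1 pool was far from the others by Dixon's test, while chance alone gives about 1 in 20. Jag2 was at 44.3 CPM in control replicate 1, a pool with high Xist, and the nearest control pool was at 14.6 CPM. Hes1 was at 36.7 CPM in cKO replicate 3, also a pool with high Xist, and the nearest cKO pool was at 30.7 CPM.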

How the results depend on the processing

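The count of genes called over all genes was 1266, with 1909 by DESeq2 and 816 to 3106 when single pools were left out, the lowest without cKO replicate 4 and the highest without control replicate 1. The members called were 1, and 0 with the replicate block, without the 4 pools high in Xist or with Xist as a covariate, and 0 to 2 when single pools were left out. Other pathway genes called were 5, with 7 by DESeq2, 4 by limma-voom and with total counts, 2 under the replicate block, 3 with Xist as a covariate, and 3 to 13 when single pools were left out, the highest without control replicate 1. Over genes averaging 1 CPM or more, the deviations of same-numbered pools had correlations from -0.35 to 0.29. These values cannot tell whether the numbers pair the pools, and the labels do not say. The replicate block lowered the SE of some members, such as Heyl (0.22 to 0.09), and raised that of others, such as Hey1 (0.07 to 0.09). The replicate block gave 931 calls over all genes and log2 fold changes of -0.64 for Hey2 (edgeR adjusted p = 0.0524) and 0.00323 for Dll4. Signs turned in members that did not pass the test. With total counts, Dll4 was at 0.0211 and Heyl at 0.000975. Without the 4 pools high in Xist, Notch3 was at 0.187, Jag1 at 0.0900, Dll4 at 0.263 and Heyl at 0.273. With Xist as a covariate, Hes1 was at -0.0103 and Heyl at 0.0300. When single pools were left out, Notch3 ran from -0.235 to 0.00885, Dll4 from -0.103 to 0.108, Hes1 from -0.00325 to 0.123 and Heyl from -0.142 to 0.0924. The causes were not tested. Other scalings moved the median of all genes to at most 0.03. Hey2 had the lowest count of the members, 27 in its lowest pool.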
